A study of Mus musculus with 18 samples.

Results

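The RNA levels of 6 genes of epithelial oxidases and peroxidases are described here, *Duox2*, *Duoxa2*, *Nox1*, *Noxo1*, *Lpo* and *Gpx2*, in sorted colon epithelial cells and in whole colon crypts of mice with and without the receptor Olfr78. They are 6 of the 52636 gene rows that both deposited tables list. The genes were chosen by name from values measured in these same libraries, with the comparisons of sorted cells and of crypts known, so their differences between groups are given as a description and are not tested as findings. All 6 were found in both tables under a single gene identifier.

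Epithelia of the gut make reactive oxygen species on purpose. *Duox2* encodes a dual oxidase that releases hydrogen peroxide at the luminal surface, and *Duoxa2* encodes the factor that the enzyme needs to mature and leave the endoplasmic reticulum. *Nox1* encodes the catalytic subunit of the superoxide-producing NADPH oxidase of the colon, which works with the organizer subunit encoded by *Noxo1*, the activator subunit encoded by *Noxa1* and the membrane subunit encoded by *Cyba*. *Lpo* encodes lactoperoxidase, a secreted heme peroxidase that uses hydrogen peroxide to oxidize thiocyanate and halides, and *Gpx2* encodes the gastrointestinal glutathione peroxidase, which reduces hydrogen peroxide inside epithelial cells.

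There were 18 libraries in 7 groups. The 6 sorted libraries came from the colons of mice 4 to 7 months old of the Olfr78-GFP line, a knock-in in which GFP takes the place of the Olfr78 coding exon: 2 Epcam+ve samples from 1 WT mouse, which the titles call GFP-negative, 2 pools of Epcam+ve/GFP+ve cells from heterozygous (HE) mice and 2 such pools from homozygous (KO) mice, each pool from 2 mice. The 12 crypt libraries came from 1 mouse each, 2 WT and 5 KO mice of that line, and 3 control and 2 eKO mice of the Vil1Cre-Olfr78fx line, in which a floxed Olfr78 exon is removed by a Cre under the Vil1 promoter, active in gut epithelium. Genotype labels of the second line were HE/WT for control mice 1 and 3, WT/HO for control mouse 2, HE/HO for eKO mouse 1 and again WT/HO for eKO mouse 2, so the label of eKO mouse 2 equals that of a control. That library is called the library labelled eKO mouse 2 throughout. In the paper, controls of this line carried either the floxed allele without Cre or Cre without the floxed allele. If the labels give Cre before the slash and the floxed allele after it, WT/HO stands for floxed *Olfr78* without Cre.

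*Duox2* and *Duoxa2* stand head to head on chromosome 2 of GRCm38. In the GENCODE M21 annotation *Duox2* lies at chr2:122279247-122298449 on the minus strand and *Duoxa2* at chr2:122298900-122302885 on the plus strand, with 451 bases between their first bases. The promoter windows that face each other are shown because the levels of these 2 genes moved together between mice, as described further on. Both windows are from RefSeq (GRCm38.p6), 250 bases before to 50 after the RefSeq start site and read 5′ to 3′ on the strand of the gene, at chr2:122298178-122298477 (minus strand) and chr2:122298650-122298949 (plus strand), and the RefSeq start of *Duox2* lies inside its GENCODE gene. Capitals mark a match to the motif TATAAA, the core promoter element called the TATA box, whose first base is 30 bases before the start of *Duoxa2*:
Duox2: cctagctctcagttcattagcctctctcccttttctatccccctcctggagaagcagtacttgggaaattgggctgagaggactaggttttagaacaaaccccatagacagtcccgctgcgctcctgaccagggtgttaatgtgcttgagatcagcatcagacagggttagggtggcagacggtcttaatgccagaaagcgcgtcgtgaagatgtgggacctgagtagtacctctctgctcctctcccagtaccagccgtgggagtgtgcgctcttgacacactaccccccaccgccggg
Duoxa2: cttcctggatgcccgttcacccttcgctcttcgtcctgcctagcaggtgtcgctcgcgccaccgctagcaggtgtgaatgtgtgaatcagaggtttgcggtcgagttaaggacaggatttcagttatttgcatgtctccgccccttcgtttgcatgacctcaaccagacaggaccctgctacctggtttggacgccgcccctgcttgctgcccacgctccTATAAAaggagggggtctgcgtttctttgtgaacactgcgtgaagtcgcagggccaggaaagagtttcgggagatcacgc

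Windows of all 6 genes matched by symbol and were searched on both strands for 4 motifs, with no overlap between different motifs in these windows. TATAAA was in 1 of the 6 windows and in 13.6% of 32544 windows of that length. TTTATG, a letter string bound by caudal-type homeobox factors such as CDX2, was in the windows of *Nox1* and *Gpx2* and in 11.9% of all. The *Nox1* window, at chrX:134111805-134112104 (minus strand), lies inside its GENCODE gene, which starts at 134221956 on that strand. The *Lpo* window also lies inside its GENCODE gene, so the search of both holds for the RefSeq start alone. CTTTGA, bound by TCF/LEF factors, and TGACNNNGC, the core of the antioxidant response element, were in none of the 6 windows and in 5215 and 4038 of all windows. These are matches of letters and say nothing of whether a factor was bound.

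The other 4 genes lie apart from each other, *Nox1* at chrX:134086421-134221956 (minus strand), *Noxo1* at chr17:24696234-24700529 (plus), *Lpo* at chr11:87806428-87828289 (minus) and *Gpx2* at chr12:76792333-76795554 (minus). Some exons are shared with a gene on the opposite strand, and whether the counting used strand was not stated in the sources used here. *Noxo1* shared 2122 of its 3013 exon bases with *Tbl3*, *Duoxa2* shared 682 of 1592 with *Duoxa1*, and *Nox1* shared 399 of 3307 with *Cstf2*, so the levels of these 3 genes are uncertain to that extent. No exon base of *Duox2*, *Lpo* or *Gpx2* was shared.

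Values are CP20M, the reads of a gene scaled to 20000000 reads per library. Recovered reads on genes were 532704 in KO pool 1, 1499833 to 2237474 in the other sorted libraries and 6175298 to 10995300 in the crypts, so 1 read was worth 37.5 CP20M in KO pool 1, 8.94 to 13.3 in the other sorted libraries and 1.82 to 3.24 in the crypts. *Olfr78* itself had 135 and 21 CP20M in Epcam+ve cells. It had 4822 and 4401 in pools from HE mice and 977 and 837 in those from KO mice. WT crypts had 88 and 111 CP20M and KO crypts 7 to 42. In the second line it had 61 to 124 CP20M in control crypts, 21 in eKO mouse 1 and 73 in the library labelled eKO mouse 2, which lay within the range of the controls. The knock-in removes only the coding exon, and *Olfr78* shares 926 exon bases with *Olfr560* on the same strand.

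Marker genes of the cell types were summed per library. Markers of epithelium (4 genes, *Krt8* the most abundant) summed to 33304 to 62080 CP20M in sorted cells and 69877 to 114755 in crypts. Enteroendocrine markers (7 genes, *Chgb* the most abundant) summed to 856276 and 1112378 CP20M in HE pools and to 356584 and 602889 in KO pools. They summed to 12649 and 13016 in Epcam+ve cells and 5870 to 14667 in crypts. The Epcam+ve samples carry the cell subtype label enteroendocrine as the pools do, but their sums were close to those of crypts. Leukocyte markers (7 genes, *Ptprc* the most abundant, with *Itgam* left out because its symbol is on 2 rows) summed to 59 to 161 in sorted cells, where *Cd3e* and *S100a8* were at 0 in all 6 libraries, and to 277 to 721 in crypts. Stromal and endothelial markers (6 genes, *Pecam1* the most abundant) summed to 413 and 568 in Epcam+ve cells, to 932 to 1803 in GFP+ve pools and to 331 to 1653 in crypts.

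All 6 genes were detected in whole crypts, and all were lower in GFP+ve HE cells than in the Epcam+ve samples. Compared per kilobase of exon in WT crypts, the order was *Gpx2* with 987 CP20M per kilobase (SD 39.3, n = 2), *Duox2* with 345 (SD 8.46), *Noxo1* with 326 (SD 8.68), *Nox1* with 211 (SD 51.5), *Lpo* with 156 (SD 24.6) and *Duoxa2* with 124 (SD 18.7). The ranges of the 2 WT mice did not overlap between any neighbours in this order, though some nearly touched. The lower *Nox1* value was 174.2 against the higher *Lpo* value of 173.5, and the lower *Lpo* value 138.8 against the higher *Duoxa2* value of 136.9. *Duox2* and *Noxo1* were also close, at 339.2 against 332.2. In KO crypts *Duox2* reached 723 CP20M per kilobase (SD 144, n = 5), second to *Gpx2* with 884 (SD 106).

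**Figure D1:**
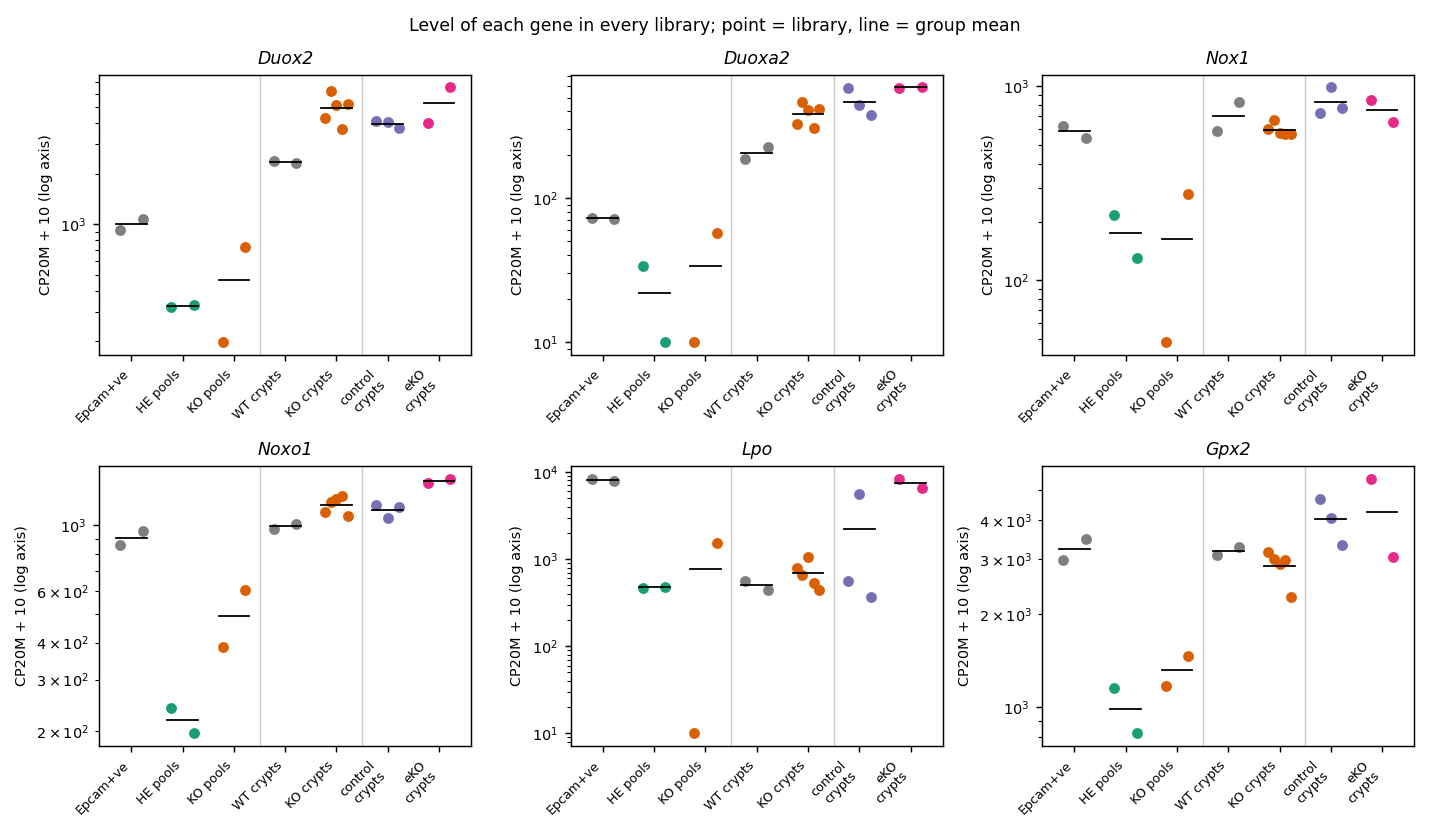
CP20M + 10 on a log axis of the 6 genes in each of the 18 libraries, by group, with points for libraries and lines for group means. *Duox2* and *Duoxa2* of KO crypts lay above WT crypts, all 6 genes were lower in HE pools than in Epcam+ve samples, and *Lpo* spanned 353 to 8396 CP20M between crypt libraries.

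By limma on log2(CP20M + 10), with an adjusted p under 0.001 and a log2 fold change beyond 2, 1 of the 6 genes (*Lpo*) passed in HE pools against Epcam+ve samples, beside 1.75% of the 16355 genes tested, and 0.171% that passed on the lower side. No member passed without the trend of the spread or with all 6 sorted libraries in 1 fit, and 2 (*Lpo* and *Noxo1*) passed by edgeR and by DESeq2. The ranges of the groups did not overlap for any of the 6, all lower in the HE pools, beside 63.5% of genes with no overlap in a design of 2 against 2, and 33.1% lower. The median log2 fold change of the 6 genes was -1.88, beside -0.05 over all genes tested. Enteroendocrine sums were higher in these HE pools, goblet sums (7 genes, *Muc2* the most abundant) were 298515 and 348939 CP20M in Epcam+ve samples and 67369 and 148437 in HE pools, stem and progenitor sums (6 genes, *Mki67* the most abundant) were 21505 and 22520 against 2364 and 6965, surface colonocyte sums (6 genes, *Car1* the most abundant) 84529 and 96432 against 48755 and 65430, epithelium sums 57130 and 62080 against 45047 and 53289, and tuft sums (5 genes, *Dclk1* the most abundant) 1276 and 1335 against 186 and 229. The part of cell composition in the 6 differences was not tested. In bulk samples fewer cells of a type and less RNA per cell cannot be told apart.

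In KO pools against Epcam+ve samples 0 of the 6 genes passed the same thresholds by limma, edgeR or DESeq2, beside 0% of 15779 genes by limma, and 4 of the 6 had an unadjusted p under 0.05, beside 18.5% of genes. All 6 log2 fold changes were negative. This comparison shares its Epcam+ve samples with the previous one. In KO against HE pools, tested on genes above 40 CP20M in all 4 pools, only *Duox2*, *Noxo1* and *Gpx2* could be tested and 0 of 3 passed an adjusted p under 0.05 by limma, edgeR or DESeq2, beside 0% of 11892 genes by limma. At an unadjusted p under 0.05 there was 1 of 3, beside 4.23% of genes. By the criterion of the study's methods, a difference of the means larger than 2 mean SDs and a change beyond 1.5-fold, 1 of 3 (*Noxo1*, higher) passed, beside 13.2% of genes, and 3.23% on the higher side. Pools did not overlap for *Noxo1* and *Gpx2*, both higher in KO pools, beside 35.0% of genes apart in either direction and 8.91% on the higher side. Goblet markers summed to 62440 for KO pool 1 and 333622 for KO pool 2, the latter inside the Epcam+ve range. HE pools had 148437 and 67369. Surface colonocyte, stem and progenitor, and epithelium sums were also higher in KO pool 2. Its enteroendocrine, tuft, leukocyte and stromal sums were lower. The part of cell composition in the differences between pools was not tested. Rescaling by median of ratios moved the median of all genes by 0.16 in KO against HE pools and by 0.14 in KO pools against Epcam+ve samples on the log2 scale, and the log2 fold changes of both comparisons are relative to medians of -0.18 and -0.26.

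For the crypts, a gene passed with an adjusted p of at most 0.2 and a change beyond 1.5-fold. In KO against WT crypts 2 of the 6 genes (*Duox2* and *Duoxa2*) passed, both higher, beside 9.48% of 15975 genes, and 7.95% on the higher side. The ranges did not overlap for 3 of 6 (*Duox2*, *Duoxa2* and *Noxo1*), all higher, beside 31.3% of genes, and 18.2% on the higher side. In eKO against control crypts 0 of 6 passed by limma, edgeR or DESeq2, beside 0% of 15401 genes by limma. At an unadjusted p under 0.05 by limma there were 2 of 6 (*Noxo1* and *Lpo*), beside 0.825% of genes. The ranges did not overlap for 2 of 6 (*Noxo1* and *Lpo*), both higher, beside 10.4% of genes, and 7.58% on the higher side. With both lines in 1 fit and the line as a covariate, 0 of 6 passed by limma or edgeR and 1 (*Duox2*) by DESeq2, beside 0.0243% of 16447 genes by limma. An unadjusted p under 0.05 was found for 4 of 6, beside 7.70% of genes. An interaction of genotype and line was called for 0 of 6 genes by limma or edgeR, beside 0.0304% of genes, and 2 of 6 had an unadjusted p under 0.05, beside 8.77%. The 6 genes were chosen with the comparisons known, so counts set beside these shares, here and for sorted cells, are no test of the 6.

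**Figure D2:**
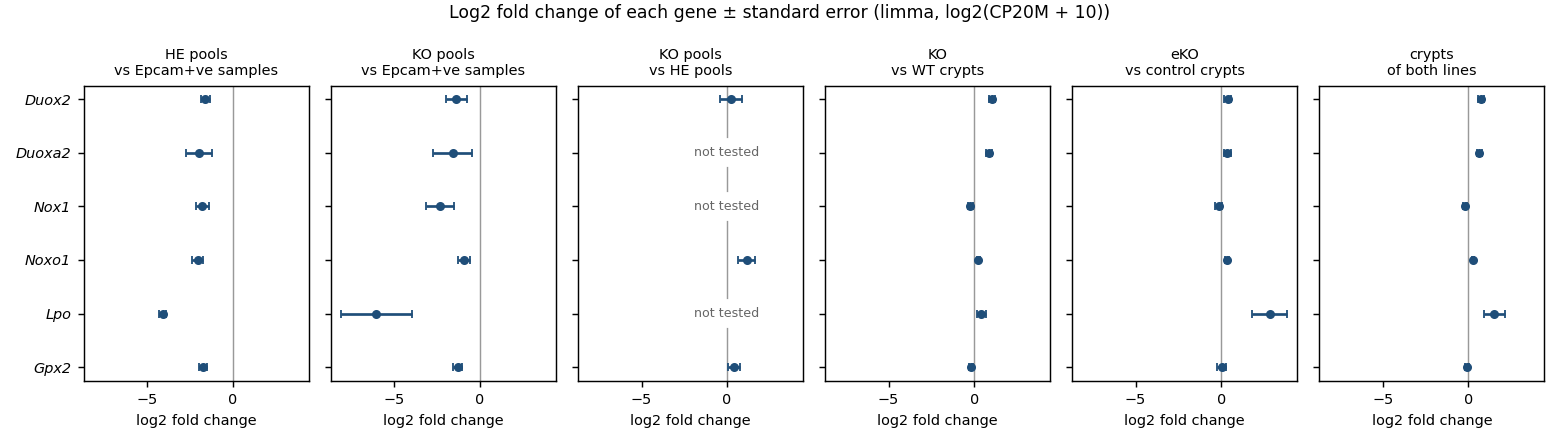
Log2 fold changes of the 6 genes with standard errors (limma on log2(CP20M + 10)) in 6 comparisons, the last with the libraries labelled KO or eKO of both lines against those labelled WT or control. All 6 were negative in HE pools against Epcam+ve samples, while in KO against WT crypts *Duox2* (1.04) and *Duoxa2* (0.88) lay highest. In KO against HE pools 3 genes (*Duoxa2*, *Nox1* and *Lpo*) were not tested, because not every pool was above 40 CP20M. *Nox1* and *Lpo* fell short only in KO pool 1, at 38 and 0 CP20M.

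*Duox2*, the hydrogen peroxide source at the luminal surface, had the clearest separation between WT and KO crypts. It had 2378 and 2297 CP20M in WT crypts and 4289, 6235, 5102, 3657 and 5179 in KO crypts. Every KO mouse was above both WT mice, and the KO mean was 2.09 times the WT mean, a log2 fold change of 1.04 (SE 0.16). Control crypts of the other line had 4101, 4059 and 3722 CP20M, eKO mouse 1 had 4009 and the library labelled eKO mouse 2 had 6532. The 3 controls lay above the WT mice of the first line and inside the range of its KO mice, and eKO mouse 1 lay inside the range of its own controls. The paper describes different genetic backgrounds for the lines, so line and background cannot be told apart in levels set across the lines. In this line the log2 fold change was 0.37 (SE 0.22), and 0.02 (SE 0.17) without the library labelled eKO mouse 2, so the difference rested on that library. With both lines together it was 0.73 (SE 0.16), and 0.69 (SE 0.18) without that library.

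Among sorted cells, the Epcam+ve samples held 912 and 1059 CP20M of *Duox2*, the pools from HE mice 311 and 321, and those from KO mice 188 and 721. The mean of the HE pools was 3.12 times lower than that of the Epcam+ve samples, with a log2 fold change of -1.61 (SE 0.27). KO pool 1 lay below and KO pool 2 above both HE pools, with a log2 fold change of 0.22 (SE 0.65) that changed sign to -0.72 without KO pool 2. In the order of group means, eKO, KO and control crypts led, each overlapping the next, WT crypts and the Epcam+ve samples followed without overlap, and the KO and HE pools came last with overlapping ranges.

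*Duoxa2*, the maturation factor, followed the same order of groups in the first line. It had 176 and 218 CP20M in WT crypts and 315, 454, 397, 295 and 408 in KO crypts. No KO mouse was as low as a WT mouse, with a ratio of means of 1.90 and a log2 fold change of 0.88 (SE 0.18). Control crypts had 576, 431 and 367 CP20M, eKO mouse 1 had 575 and the library labelled eKO mouse 2 had 579. Control mouse 1 stood between the eKO libraries, and all 3 controls were above both WT mice of the first line, again across lines of different background. Between eKO and control crypts the log2 fold change was 0.35 (SE 0.21), and 0.35 (SE 0.27) without the library labelled eKO mouse 2.

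Sorted cells held few *Duoxa2* reads. Epcam+ve cells had 63 and 62 CP20M, pools from HE mice 24 and 0, and pools from KO mice 0 and 47. These values stand for 7, 6, 2, 0, 0 and 4 reads. From 2 reads in HE pools and 13 in Epcam+ve samples the ratio was 0.199, with an exact 95% interval of 0.022 to 0.878 that covers counting error only. A library at 0 allows up to 3 reads, 113 CP20M in KO pool 1, so a lower level in KO pools than in Epcam+ve samples was not detectable at this depth, with a ratio of 0.571 and an interval of 0.136 to 1.85.

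The nearest relatives of this enzyme pair moved alike or were too low to follow. *Duoxa1*, the maturation factor of the other dual oxidase, which lies next to *Duoxa2* and shares exon bases with it, had 80 and 91 CP20M in WT crypts and 158, 192, 140, 157 and 141 in KO crypts. It passed the thresholds with a log2 fold change of 0.81 (SE 0.18, adjusted p = 0.0213 by limma). Per kilobase *Duoxa2* was 4.69 to 7.23 times *Duoxa1* in the KO crypts and at most 5.98 times in the WT crypts. *Duox1*, the other dual oxidase, had 8 to 53 CP20M in crypts and passed the filter on low values in no comparison.

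Across the 12 crypt libraries, centred on the mean of each line, *Duox2* and *Duoxa2* had a Pearson r of 0.89 and a Spearman rho of 0.92. Without the 2 libraries farthest from the median of *Duox2* r was 0.88. These values hold the difference between KO and WT crypts, which chose the genes, and are given with no test. Centred on the mean of each genotype group, which removes that difference, r was 0.59 and rho 0.69, with two-sided permutation p of 0.0031 and 0.00261 (100000 permutations) and 0.0465 and 0.0391 after Benjamini-Hochberg adjustment over the 15 pairs of the 6 genes, and r was 0.55 without the 2 farthest libraries. The permutations do not remove spread that many genes of a library share. The share of all gene pairs with such an r was not computed. Centred on the genotype groups, *Rnd3* had r = 0.90 with *Duox2* and *Abcc1* 0.92 with *Duoxa2*, both picked among 13113 genes. These p-values therefore do not set the 2 partners apart from other genes. The 5 libraries of the Vil1Cre-Olfr78fx line were too few for a correlation of their own. Per kilobase *Duox2* was 2.92 to 3.23 times *Duoxa2* in KO crypts and 2.48 to 3.18 times in WT crypts, against 1.67 to 2.39 in the controls and 1.64 and 2.65 in the eKO libraries.

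**Figure D3:**
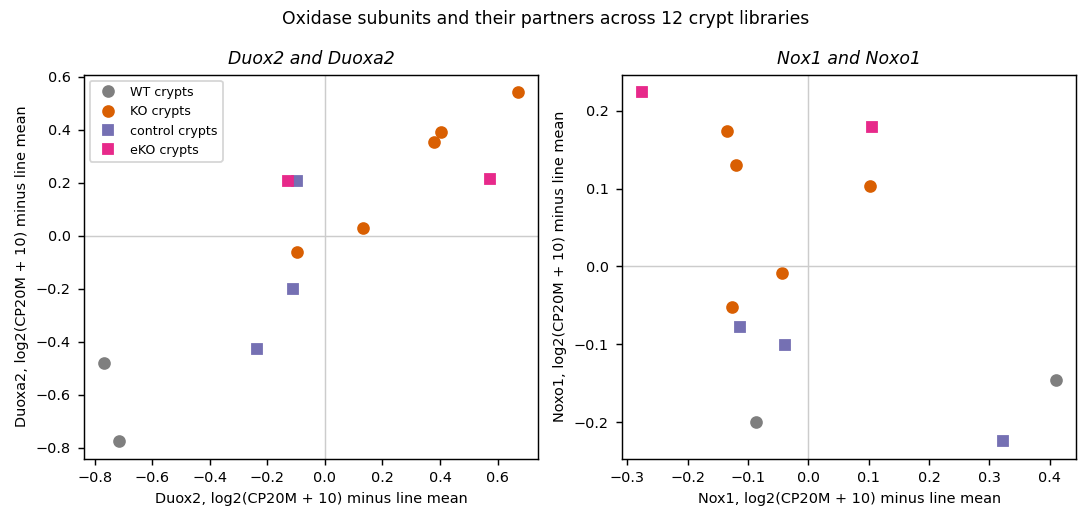
Each point is 1 of 12 crypt libraries, with log2(CP20M + 10) minus the mean of its line for *Duox2* and *Duoxa2* (left) and for *Nox1* and *Noxo1* (right). *Duox2* and *Duoxa2* lay along the diagonal (r = 0.89), with WT crypts at the low end and most KO crypts at the high end, and *Nox1* and *Noxo1* had r = -0.48.

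Marker sums also differed between the crypts of the first line. Surface colonocyte markers summed to 143328 and 150440 CP20M in WT and 103905 to 128876 in KO crypts, stem and progenitor markers to 14201 and 14469 against 14976 to 16848, leukocyte markers to 574 and 720 against 277 to 540, and epithelium markers to 81436 and 84555 against 69877 to 80122, all without overlap. Goblet sums were 384123 and 448451 against 381448 to 656700, tuft sums 1122 and 1297 against 997 to 1543, and stromal and endothelial sums 490 and 1198 against 413 to 756, all overlapping. Enteroendocrine sums also overlapped, with 7856 and 14667 CP20M in WT and 5962 to 11518 in KO crypts. In the second line tuft sums did not overlap, with 1656 to 2074 CP20M in control and 1152 and 1323 in eKO crypts. The sums of the other 7 lists overlapped there, among them those of surface colonocytes (118832 to 165101 against 137501 and 142958) and of stem and progenitor cells (9729 to 14475 against 11131 and 14154). The part of cell composition in the *Duox2* and *Duoxa2* differences was not tested.

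*Nox1*, the superoxide-producing subunit, overlapped between the genotypes of both lines. It had 576 and 817 CP20M in WT crypts and 594, 658, 563, 557 and 560 in KO crypts, so 2 KO mice lay between the WT mice and 3 lay below both. Its log2 fold change of -0.23 (SE 0.14) became 0.02 without WT mouse 2, so the sign rested on that library. Control crypts had 722, 980 and 760 CP20M, eKO mouse 1 had 841 and the library labelled eKO mouse 2 had 644, also overlapping, with a log2 fold change of -0.14 (SE 0.20) that turned to 0.05 without the library labelled eKO mouse 2.

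Sorted Epcam+ve cells had 617 and 535 CP20M of *Nox1*. Pools from HE mice had 208 and 121, and pools from KO mice 38 and 268. The mean of the HE pools was 3.50 times lower than that of the Epcam+ve samples, with a log2 fold change of -1.79 (SE 0.39). The KO pools lay on both sides of the HE pools, and the value of 38 in KO pool 1 is a single read. Against the Epcam+ve samples the log2 fold change of the KO pools was -2.34 (SE 0.83), -3.61 without KO pool 2 and -1.07 without KO pool 1, so its size was set by 1 pool. In the order of group means the crypt groups and the Epcam+ve samples overlapped from each group to the next, and the HE and KO pools lay below without overlap with the Epcam+ve samples.

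*Noxo1*, the organizer of the same oxidase, was the steadiest of the 6 genes between crypts, with the highest library 1.49 times the lowest. It had 964 and 1001 CP20M in WT crypts and 1102, 1192, 1215, 1252 and 1069 in KO crypts. Every KO mouse was above both WT mice, by a small margin, with a ratio of means of 1.19 and a log2 fold change of 0.24 (SE 0.10) that is under 1.5-fold. Control crypts had 1160, 1047 and 1141 CP20M, eKO mouse 1 had 1388 and the library labelled eKO mouse 2 had 1432, again without overlap, with a log2 fold change of 0.34 (SE 0.14) and of 0.31 (SE 0.17) without the library labelled eKO mouse 2. In both lines together it was 0.29 (SE 0.07), also under 1.5-fold.

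For *Noxo1* the sorted groups stood apart, with 850 and 946 CP20M in Epcam+ve cells, 376 and 593 in pools from KO mice, and 231 and 187 in pools from HE mice. The 3 groups did not overlap, with the KO pools between the others. Log2 fold changes were -2.06 (SE 0.31) for HE pools against Epcam+ve samples and 1.15 (SE 0.50) for KO against HE pools. Most exon bases of *Noxo1* are shared with *Tbl3* on the opposite strand, so part of these reads could belong to either gene.

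For *Nox1* and *Noxo1* r was -0.48 and rho -0.52 over the 12 libraries centred on their line, and r was -0.05 without the 2 libraries farthest from the median of *Nox1*. Centred on the genotype groups r was -0.23 and rho -0.21 (permutation p = 0.419 and 0.48, adjusted 0.966 and 0.916 over the 15 pairs). *Noxo1* had r = 0.66 with *Duoxa2* and 0.63 with *Duox2* centred on the line, and 0.05 and -0.07 centred on the genotype groups. Of the 15 pairs centred on the genotype groups, 1 (*Duox2* and *Duoxa2*) had an adjusted permutation p under 0.05.

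The other subunits of this oxidase are *Noxa1* and *Cyba*. *Noxa1* had 1306 and 637 CP20M in Epcam+ve cells, 311 and 187 with the HE genotype, 301 and 512 with the KO genotype, and 666 to 935 in the crypts. Its log2 fold change of -1.88 (SE 0.42) in HE pools did not pass. *Cyba* was at 233 and 216 CP20M in Epcam+ve cells, 127 and 94 in pools of HE mice, 0 and 221 in pools of KO mice and 199 to 451 in the crypts.

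*Lpo*, the secreted peroxidase, had the widest spread of the 6 genes, 23.8-fold between crypt libraries. It had 544 and 435 CP20M in WT crypts and 776, 648, 1040, 528 and 431 in KO crypts. These groups overlapped, with a log2 fold change of 0.42 (SE 0.26). Control mice 1 and 3 had 558 and 353 CP20M and control mouse 2 had 5634, while eKO mouse 1 had 8396 and the library labelled eKO mouse 2 had 6622. Control mouse 2 stood with the eKO libraries and not with the other 2 controls. The resulting log2 fold change was 2.83 (SE 1.02). It was 4.04 (SE 0.27) without control mouse 2, the only fit of these crypts in which *Lpo* passed (adjusted p = 0.0535 by limma), and 3.00 (SE 1.32) without the library labelled eKO mouse 2.

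The *Lpo* levels of the second line followed the part of the genotype label after the slash. On the reading of the labels given above, that part is the floxed allele, and the HO libraries include mice with and without Cre. The 3 libraries with HO there had 5634 to 8396 CP20M and the 2 with WT there had 558 and 353, a ratio of means of 15.1 and a difference of 3.91 on the log2 scale. This split was seen after the values were known, and it is given with no test. Of 15401 genes, 9.62% had no overlap between these 3 and 2 libraries, 6.17% on the higher side, and of those 1482 genes *Lpo* had the largest difference. None of the other 5 genes was apart, with ratios of 1.04 to 1.24. The litters and ages of these mice were not given in the labels used here.

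A high *Lpo* level was also seen in the single WT mouse behind the sorted Epcam+ve samples. These samples had 8349 and 7962 CP20M, against 461 and 467 for HE mice and 0 and 1511 for KO mice in the sorted pools. The Epcam+ve mean was 16.7 times that of WT crypts of the same line, while for the other 5 genes this ratio was 0.317 to 1.01. The HE pools were 17.6 times lower, with a log2 fold change of -4.11 (SE 0.18), and lay inside the range of WT crypts. The mouse and the sort cannot be told apart in this difference, since all Epcam+ve cells came from 1 mouse.

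The KO pools differed from each other more than from the HE pools in *Lpo*. KO pool 1 had 0 reads, which allows up to 113 CP20M and so lies below both HE pools, and KO pool 2 had 1511 CP20M. Against the Epcam+ve samples the ratio over both pools was 0.141 from 130 and 1709 reads, with an exact 95% interval of 0.117 to 0.169 for counting error only. A fitted log2 fold change of -6.05 (SE 2.06) became -2.42 without KO pool 1 and -9.67 without KO pool 2, and it was -7.71 with a pseudocount of 1 and -3.08 by edgeR.

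*Scpep1*, a serine carboxypeptidase gene named here because its crypt pattern was among the 3 most like that of *Lpo*, lies on the same chromosome 1095731 bases away. Epcam+ve cells had 930 and 905 CP20M of it, WT crypts 371 and 313, and KO crypts 261 to 348. In the second line it had 357 and 332 CP20M in control mice 1 and 3, and 595, 821 and 679 in control mouse 2, eKO mouse 1 and the library labelled eKO mouse 2, a ratio of 2.03 between the labels. Its HE pools had 461 and 694 CP20M and its KO pools 526 and 233, an order that *Lpo* did not share.

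**Figure D4:**
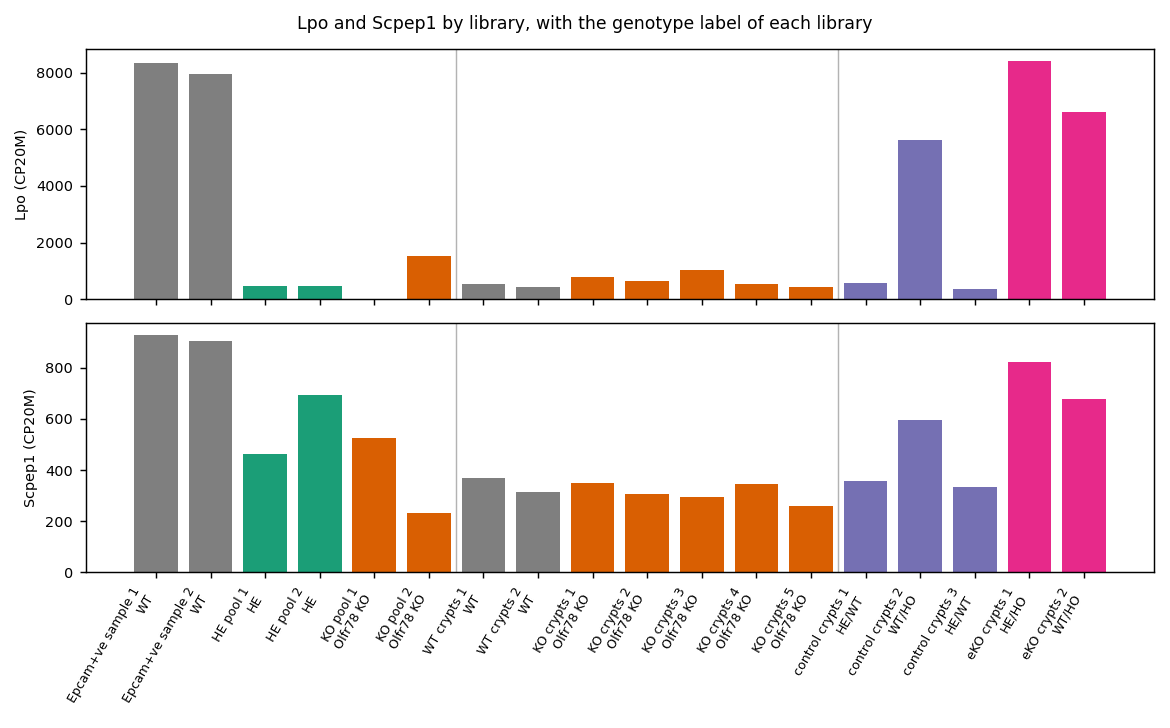
CP20M of *Lpo* (top) and *Scpep1* (bottom) in each library as bars from 0, with the genotype label under the library name. The Epcam+ve samples of 1 WT mouse and the 3 crypt libraries with HO after the slash had 5634 CP20M of *Lpo* or more, and the other 13 libraries had 1511 or less.

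*Gpx2*, the peroxide-reducing enzyme, had the highest level per kilobase in WT crypts. It had 3092 and 3271 CP20M in WT crypts and 3146, 2983, 2879, 2965 and 2262 in KO crypts. KO mouse 1 lay between the WT mice and the other 4 lay below both, with a log2 fold change of -0.17 (SE 0.12). Control crypts had 4674, 4048 and 3332 CP20M, eKO mouse 1 had 5443 and the library labelled eKO mouse 2 had 3047, the highest and the lowest of the line. A log2 fold change of 0.03 (SE 0.27) became 0.45 (SE 0.22) without the library labelled eKO mouse 2, so its size was set by which eKO library was counted.

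Both sorted Epcam+ve samples, at 2968 and 3483 CP20M of *Gpx2*, were above the pools, which had 1140 and 814 for HE and 1164 and 1453 for KO mice. The HE mean was 3.30 times lower than the Epcam+ve mean, with a log2 fold change of -1.73 (SE 0.23). KO pools stood just above the HE pools without overlap, with a log2 fold change of 0.43 (SE 0.35). The Epcam+ve samples and WT crypts were close, with a ratio of means of 1.01.

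Spread between the 5 KO mice also set the genes apart from each other. The coefficient of variation was 6.64% for *Noxo1*, 7.28% for *Nox1*, 17.9% for *Duoxa2* and 34.6% for *Lpo*, with *Gpx2* and *Duox2* in between, beside a median of 13.2% over 15766 genes.

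A list of 43 other genes of hydrogen peroxide and superoxide handling was followed by role, of which 9 had fewer than 40 CP20M in every library. In HE pools against Epcam+ve samples 0 of the 29 tested passed by limma, edgeR or DESeq2, with 19 at an unadjusted p under 0.05, beside 37.2% of all genes. Log2 fold changes were negative in 25 and positive in 4, with a median of -0.81 beside -0.05 over all genes. All 9 tested peroxiredoxins, catalase and superoxide dismutases were negative (median -0.63), with *Prdx6*, a peroxiredoxin of the cytosol, at 5891 and 5178 CP20M in Epcam+ve samples and 2670 and 867 in HE pools. Of 11 genes of thioredoxin and glutathione supply 10 were negative (median -1.08), including *Txn1*, the cytosolic thioredoxin, at 3630 and 3678 against 1703 and 1734 CP20M. *Gpx1*, the widespread glutathione peroxidase and closest relative of *Gpx2*, had 2611 and 2487 against 1025 and 801 CP20M, and *Gpx4*, which reduces lipid peroxides, 689 and 637 against 288 and 174. *Gpx3*, the secreted glutathione peroxidase, lay the other way, at 116 and 281 CP20M in HE pools against 18 and 0. *Gpx3* passed the filter only through the HE pools, and *Hmox1* of the thioredoxin and glutathione genes only through the Epcam+ve samples, so their directions add no support.

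In KO against HE pools 0 of the 23 tested genes of this list passed by limma, edgeR or DESeq2, with 1 at an unadjusted p under 0.05, beside the 4.23% of all genes. The criterion of the study's methods was met by 4 of 23, among them the peroxiredoxins *Prdx2* and *Prdx5*, lower in KO pools, and catalase (*Cat*), higher, beside the share of all genes given above.

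In KO against WT crypts 30 genes of the list were tested, 2 were called higher and 1 lower, beside the share given above for that comparison. *Duoxa1* is described above. *Hmox1*, the inducible heme oxygenase, had 30 CP20M in both WT crypts and 33 to 82 in KO crypts, on 11 to 36 reads. Its log2 fold change was 0.70 (SE 0.31, adjusted p = 0.177 by limma). Both WT values were under the filter on low values, so *Hmox1* passed that filter only through KO crypts. Its direction therefore adds no support to the count of genes called higher. *Nqo1*, a quinone reductase of the antioxidant response, was called lower, with 988 and 1180 CP20M in WT crypts and 535 to 778 in KO crypts and a log2 fold change of -0.73 (SE 0.14, adjusted p = 0.0132 by limma). Log2 fold changes were negative in 24 of 30 (median -0.22 beside 0.03 over all genes), among them all 9 peroxiredoxins, catalase and superoxide dismutases (median -0.37), with *Sod1*, the cytosolic superoxide dismutase, at 3143 and 3268 in WT and 2151 to 2769 CP20M in KO crypts. In eKO against control crypts 0 of 29 passed by limma, with 0 at an unadjusted p under 0.05 (0.825% of all genes), and 23 were positive (median 0.10 beside 0.03). In both lines together 0 of 30 passed by limma, edgeR or DESeq2, with 3 at an unadjusted p under 0.05, beside 7.70% of all genes, and for the difference between the lines 0 of 30 passed by limma, with 7 at an unadjusted p under 0.05, beside 8.77%. For *Nqo1* eKO crypts had 1066 and 1352 CP20M, against 907 to 1225 in their controls.

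**Figure D5:**
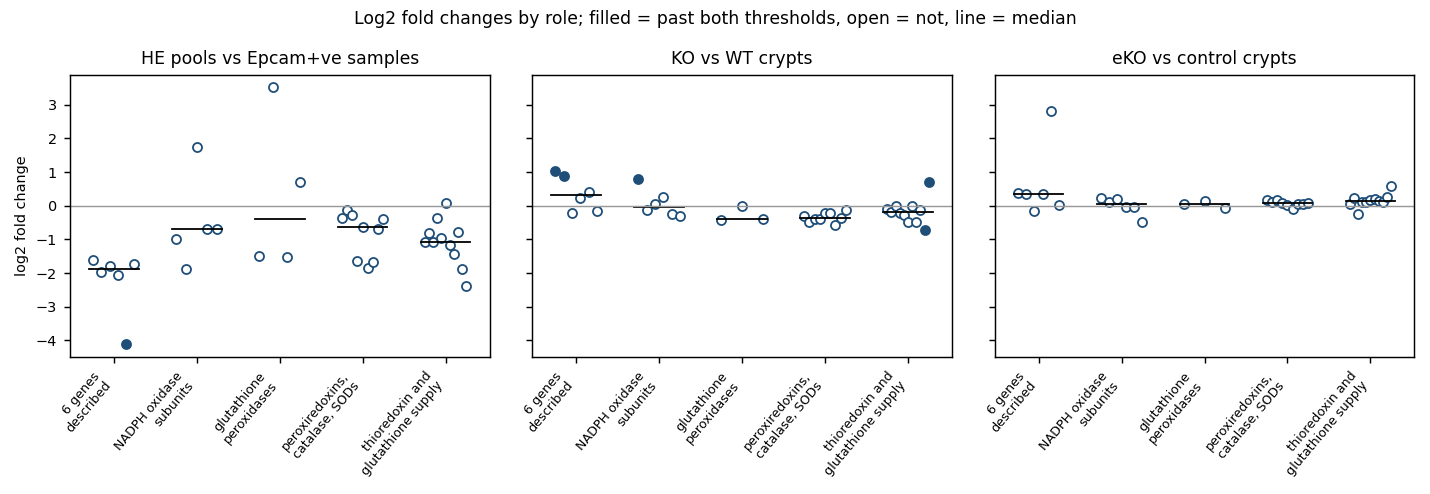
Log2 fold changes of the 6 genes and of 4 roles of the redox list in 3 comparisons, with filled points for genes past both thresholds, open points for the others and lines for medians. In HE pools against Epcam+ve samples the 4 role medians lay below 0, in KO against WT crypts *Duoxa1*, *Hmox1* and *Nqo1* were filled besides *Duox2* and *Duoxa2*, and in eKO against control crypts no point was filled.

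Heme peroxidases other than *Lpo* were near the limit of detection. *Mpo* and *Epx*, enzymes of neutrophils and eosinophils, had 0 to 12 CP20M in crypts, *Epx* was at 0 in all sorted libraries, and *Mpo* was at 0 in all of them but KO pool 2 (35 CP20M). *Pxdn*, the peroxidase of the basement membrane, had 15 to 56 CP20M in crypts.

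The genes whose pattern over the 12 crypt libraries, centred on their line, was most like each of the 6 were named by the highest Pearson r among 13113 genes with at least 40 CP20M in all 12. They share these libraries, and the r values are a description. For *Duox2* they were *Plcg1* (r = 0.94), *Pgs1* (0.92) and *Rnd3* (0.92), with *Rnd3* at 0.90 when centred on the genotype groups. For *Duoxa2* they were *Abcc1* (0.93, and 0.92 centred on the genotype groups), *Duoxa1* (0.90) and *Fam83d* (0.90). For *Nox1* they were *Gm12174* (0.86), *Nfia* (0.86) and *Mbd2* (0.85). For *Noxo1* they were *Tbl3* (0.93), which shares exon bases with it, *Zdhhc16* (0.92) and *Nid2* (0.91). For *Lpo* they were *Gm44317* (0.92), *Scpep1* (0.90) and *Sec63* (0.89). For *Gpx2* they were *Cstf2* (0.97), *Ube2e3* (0.95) and *Cks1b* (0.94), of which *Cstf2* overlaps *Nox1* and not *Gpx2*.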

How the data were processed

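Paired-end reads of 18 RNA libraries were mapped by the authors to GRCm38 with STAR and counted per gene with HTSeq on the Ensembl release 90 annotation. The sorted-cell values deposited by the authors are a signal, reads per gene scaled to 20000000 per library and rounded up. The crypt values deposited by the authors are a score made alike, by scaling reads per gene to 20000000 per library and rounding up. Whole reads could be recovered for 99.84% to 99.99% of values per library. Intervals and limits from reads cover counting error only.

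Tests used limma 3.58.1 (R 4.3.3) with a trend of the spread on log2(CP20M + 10), with Benjamini-Hochberg adjustment over all genes past a filter of 40 CP20M in 2 compared libraries. For KO against HE pools all 4 pools had to be above it. Fold changes on this scale understate those of low genes. Groups came from the sample titles. The 6 genes, the gene lists and the motifs were chosen with earlier results of these data known. Named genes were these 6, Olfr78, redox genes called in any comparison, up to 3 per role with the highest mean, the partners Duox1, Duoxa1, Noxa1, Cyba and Gpx1, the 3 genes most alike in pattern, and the top marker of each list. Scpep1 and the genes of small counts were named after their values were seen. A single gene of the redox list is counted but its values are not reported here.

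Libraries with the same number in their titles are different animals, so numbers were not used as pairs. P-values of sorted cells measure in part a technical spread, because the Epcam+ve samples share a mouse. Replicates differed by more than sampling noise in every group. The scripts were tested on simulated data. Alternatives were a pseudocount of 1 or 40, rescaling by median of ratios, edgeR 4.0.16 and DESeq2 1.42.0 on recovered reads, no filter, no trend, number as block, fits over all sorted or all crypt libraries, no line term, and each library left out.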

Additional observations from a re-analysis of the deposited data

Results flagged for a closer look

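Among the 5 KO crypts, *Duox1*, the other dual oxidase, had 53 CP20M in mouse 1, far from the 28 to 35 CP20M of the other 4 mice by Dixon's criterion. Chance flags about 1 in 20 such groups, and 12 genes were examined in this one. *Duox1* passed the filter on low values in no comparison.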

How the results depend on the processing

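Of the recomputed counts of called genes 150 stayed within 1.5 times the count given above and 21 did not, and of the single values 15 changed sign, 19 passed and 2 lost the threshold, and 608 did none of these. *Duox2* and *Duoxa2* were the 2 of 6 genes called in KO against WT crypts under every alternative run. In HE pools against Epcam+ve samples, 2 of 6 were called by edgeR and by DESeq2 (*Noxo1* besides *Lpo*), 0 without the trend and 0 with all 6 sorted libraries in 1 fit, and 1 to 3 with a library left out, the 3 without HE pool 1 (*Nox1*, *Noxo1* and *Lpo*). For the other redox genes leaving a library out gave 0 to 4, the 4 again without HE pool 1. Over all genes this comparison called 287, against 759 by edgeR, 691 by DESeq2, 117 in 1 fit and 0 without the trend. Between the KO and HE pools, the criterion of the methods called 1 of the 6 and 4 other redox genes, and leaving a library out gave 0 to 1 for each, the 1 being *Lpo* without KO pool 1. Over all genes that criterion called 1572 and DESeq2 8, against 0. In KO pools against Epcam+ve samples leaving a library out called 1 to 3 genes, *Lpo* each time, with *Duox2* and *Nox1* without KO pool 2, and edgeR, DESeq2 and the block called 31, 238 and 194 of all genes, against 0.

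In eKO against control crypts leaving a library out called 0 to 1 (*Lpo* without control mouse 2). In both lines together DESeq2 called 1, and leaving a library out 0 to 2 of the 6 and 0 to 2 other redox genes, the highest without eKO mouse 1, when *Duox2* and *Duoxa2* passed. Over all genes edgeR called 9 and DESeq2 38, against 4. For the difference between the lines it was 0 to 2, with *Lpo* called without control mouse 2 and *Duox2* and *Gpx2* without the library labelled eKO mouse 2.

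Signs of log2 fold changes turned as follows. With a library left out *Duox2* ranged from -0.72 to 1.17 in KO against HE pools, *Nox1* from -0.47 to 0.023 in KO against WT crypts and from -0.33 to 0.048 in eKO against control crypts, and *Gpx2* from -0.38 to 0.45 in eKO against control crypts and from -0.24 to 0.045 in both lines. For the difference between the lines *Nox1* ranged from -0.17 to 0.33 and *Gpx2* from -0.22 to 0.62. Moving the library labelled eKO mouse 2 to the controls, an alternative chosen after seeing the data like the next, gave -0.16 for *Duox2* and 0.13 for *Nox1* in that line and 0.088 for *Gpx2* in both lines, and leaving out both WT/HO libraries gave 0.033 for *Gpx2*. The cause was not tested.

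The correlation of same-numbered libraries was 0.03 and 0.02 for Epcam+ve samples with HE and KO pools, -0.24 between KO and HE pools, 0.06 and -0.10 in crypts of the first line and 0.59 and 0.36 in the second. With the number as a block 1 of 6 genes (*Lpo*) was called in KO pools against Epcam+ve samples, *Gpx2* was -0.10 in eKO against control crypts, and no other call changed. The crossed pairing of the pools, chosen after seeing the data, called 0. Depth limits *Duoxa2* in sorted cells to at most 7 reads a library.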
